A study of Mus musculus with 13 samples.

Results

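The proteasome is the main protease of the cytosol and nucleus. Its 20S core is a barrel of stacked rings, in which the outer α rings gate the entrance and the inner β rings carry the cutting sites, and the 19S regulatory particle caps the barrel, where a ring of ATPases unfolds substrates and the non-ATPase subunits bind ubiquitin chains, remove them and hold the lid and base together. The core normally uses the catalytic subunits encoded by *Psmb5*, *Psmb6* and *Psmb7*, which interferon can replace with the immunoproteasome subunits. The genes of the constitutive particle are known to be expressed in every cell and to be raised together through the transcription factor encoded by *Nfe2l1* when proteasome activity falls short.

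Genes were taken by name. The rule took entries named Psma, Psmb, Psmc or Psmd with a number and left out the immunoproteasome genes *Psmb8*, *Psmb9* and *Psmb10*. It matched 36 of the 13222 genes listed. One of them, *Psmc3ip*, encodes a meiotic recombination factor and no proteasome subunit, and it was kept apart. The other 35 comprised 7 genes of the 20S α ring, 8 of the 20S β ring, 6 of the 19S ATPase ring and 14 non-ATPase genes of the 19S particle. All 35 passed the filter on low reads and were tested. The names are broader than the constitutive particle, since *Psmb11* belongs to the thymus proteasome, and *Psmd5*, *Psmd9* and *Psmd10* encode chaperones that assemble the 19S base and leave it.

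The cells were 4T1-Thy1.1, a murine mammary carcinoma line that carries a Thy1.1 transgene and is used as a model of triple negative breast cancer. They were grown in 12-well plates. The labels give DMEM/F12 with serum as the medium of every group, whereas the study's methods name RPMI for 4T1 cells, and the groups share the line and the transgene. Control cells received neither agent (n = 3), DOX cells received 200 ng/mL doxorubicin (n = 4), IL-17A cells received 25 ng/mL recombinant mouse IL-17A (n = 3), and DOX+IL-17A cells received both at those doses (n = 3), each for 48 hours. Doxorubicin is a topoisomerase poison that breaks DNA, and IL-17A is a cytokine that acts on epithelial cells through its receptor.

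RNA was measured by 3′ tag sequencing, and values are TMM-normalised CPM (reads scaled to a common library size). The libraries held 4445592 to 16930600 reads on listed genes, so that 3 reads were worth 0.183 to 0.613 CPM. Of the 35 genes, *Psmb11* had 0 to 51 reads per library, and *Psma5* and *Psmc2* were the next lowest with at least 36. Epithelial markers were present in every library (7 of 7 listed, summed level 869 to 2325 CPM), and 5 of them were lower with DOX than in control. Skeletal muscle markers (10 of 10 listed) summed to 4.72 to 43.0 CPM except in DOX replicate 1, at 287, where red blood cell markers (3 of 5 listed) were also highest, at 66.5 against 0.00 to 14.4 elsewhere. Immune markers (3 of 7 listed) summed to 1.86 to 6.70 CPM in control and 10.5 to 20.8 in DOX, fibroblast markers (5 of 6 listed) to 48.2 to 143 in control and 27.9 to 78.1 in DOX, and the liver list was at 0 to 2.25 throughout. The part of these markers in the results below was not tested. Control replicate 1 stood apart from the other libraries. It was the highest or lowest of the 13 libraries for 57.1% of the proteasome genes and for 48.0% of all genes tested, and counts of calls against control, and the values of several genes, are given with and without it.

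Promoters were examined for letters that the family might share, since *Nfe2l1* and its relatives bind antioxidant response elements and the trimer NF-Y binds CCAAT boxes. The RefSeq promoter table (GRCm38, 250 bases before to 50 after the start) had an entry for 29 of the 35 genes. TGACNNNGC, the core of an antioxidant response element, was found on either strand in 17.2% of the 29, in 12.5% of all promoters and in 15.0% of those of tested genes. CCAAT was found in 41.4% against 37.9% and 39.7%. The SP1-type box GGGCGG was found in 62.1% against 35.9% of all promoters, but in 65.5% of the promoters of tested genes. The ETS-type word CCGGAAG was found in 31.0% against 9.12% of all promoters and 19.2% of those of tested genes. A match here is a description of letters and not a bound site. Upstream sequence is printed for 3 of the 4 genes called with DOX, and for *Psmb5* as the catalytic gene with a match to TGACNNNGC. Each run stops at the first annotated transcript base, reads 5′ to 3′ on the gene's strand, and has matches to any of the 4 words, which do not overlap in these runs, in capitals. The positions are chr11:97703184-97703398 (plus) for *Psmb3*, chr3:94886962-94887208 (minus) for *Psmb4*, chr7:29180702-29180923 (minus) for *Psmd8* and chr14:54618023-54618245 (minus) for *Psmb5*.
Psmb3: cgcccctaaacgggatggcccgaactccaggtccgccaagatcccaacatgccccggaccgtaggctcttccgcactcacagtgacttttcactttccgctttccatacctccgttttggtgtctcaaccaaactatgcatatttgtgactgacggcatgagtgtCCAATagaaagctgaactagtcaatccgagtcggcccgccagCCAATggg
Psmb4: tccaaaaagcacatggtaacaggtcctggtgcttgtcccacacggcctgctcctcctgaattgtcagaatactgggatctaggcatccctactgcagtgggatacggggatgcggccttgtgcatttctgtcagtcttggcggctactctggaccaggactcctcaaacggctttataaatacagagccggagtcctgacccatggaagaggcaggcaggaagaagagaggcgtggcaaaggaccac
Psmd8: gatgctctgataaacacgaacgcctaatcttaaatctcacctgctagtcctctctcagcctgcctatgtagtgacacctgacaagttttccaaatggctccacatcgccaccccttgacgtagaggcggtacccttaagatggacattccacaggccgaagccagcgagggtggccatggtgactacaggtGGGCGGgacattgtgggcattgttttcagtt
Psmb5: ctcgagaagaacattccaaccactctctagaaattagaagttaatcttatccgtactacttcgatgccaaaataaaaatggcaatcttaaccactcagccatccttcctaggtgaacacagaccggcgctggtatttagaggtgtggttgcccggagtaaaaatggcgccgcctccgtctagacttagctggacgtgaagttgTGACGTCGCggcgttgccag
The run of *Psmb3* held CCAAT at 2 places, that of *Psmd8* held GGGCGG at 1, that of *Psmb4* held none of the 4 words, and that of *Psmb5* held TGACNNNGC at 1. Thus the 3 genes called with DOX and printed here did not have a searched word in common in these windows. *Psmd3*, the other gene called, had no entry in the promoter table and was not searched.

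The first question was whether DOX changed the constitutive subunit genes. In all, 4 genes rose and none fell at an adjusted p under 0.05 (limma, Benjamini-Hochberg over 12319 genes): *Psmd8*, *Psmb3*, *Psmb4* and *Psmd3*. Thus 11.4% of the members were called higher, where 12.4% of all genes tested were, and 0 of 35 were called lower, where 9.71% of all genes were. The share that rose was near the background. The median log2 fold change of the members was 0.23, against 0.09 over all genes, and 25 of 35 were above 0 (71.4%, against 54.6% of all genes). Between libraries of the same condition, the median log2 level of the members had a pooled SD of 0.19. Of the members, 33 of 35 changed by less than 2-fold (94.3%, against 79.8% of all genes). With the study's stricter call, which also asks for a fold above 2, only *Psmd8* was called among the 35, where 9.15% of all genes were called higher. At an unadjusted p under 0.05 there were 8 members (22.9%, against 36.5% of all genes).

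**Figure D1:**
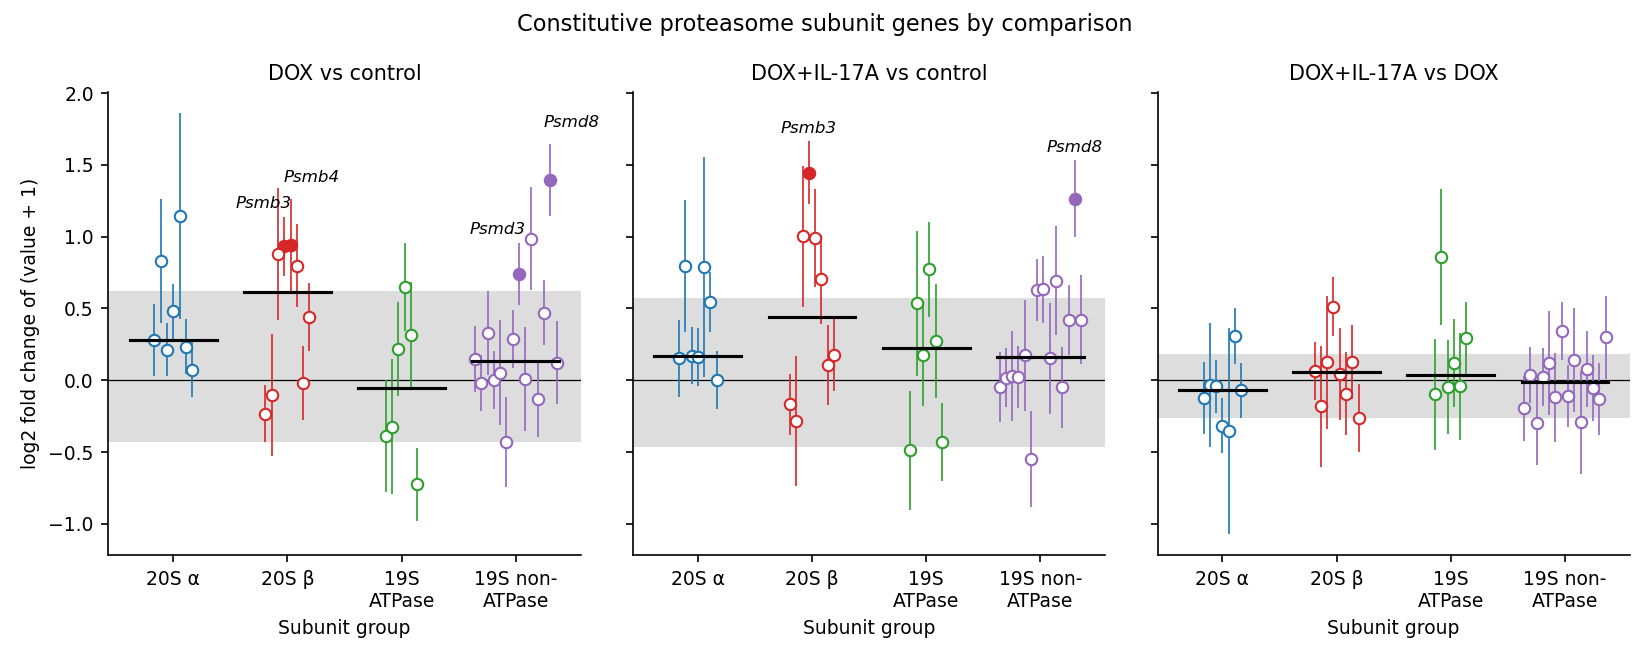
Each point is 1 of the 35 constitutive proteasome genes, with its log2 fold change of (value + 1) and standard error on the vertical axis and its subunit group on the horizontal axis, for 3 comparisons. Filled points have an adjusted p under 0.05 (limma), black bars are group medians, and the grey band is the middle part (25th to 75th percentile) of all 12319 genes; 4, 2 and 0 points are filled in the 3 panels, and all filled points lie above 0.

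Leaving out control replicate 1 changed these counts. There were then 6 members called higher with DOX, which is 17.1% of them against 11.7% of all genes, and the median of the members was 0.39 against 0.05. The 6 were *Psmb3*, *Psmc4*, *Psmc5*, *Psmd2*, *Psmd7* and *Psmd8*, so that *Psmb4* and *Psmd3* were lost. Scaling by library size only, in place of TMM, gave 8 higher (22.9%, against 17.1% of all genes), and it moved the median of all genes from 0.09 to 0.24, so that the members' median lay 0.17 above that of all genes, as against 0.15 with TMM. Leaving out DOX replicate 1 or DOX replicate 2 gave 2 higher. That count has no share of all genes beside it and is not a result about the members. When 3 libraries that lay farthest from their own group on these very genes were left out (control replicate 1, DOX+IL-17A replicate 5 and IL-17A replicate 5, chosen after the values were seen), 14 members were called higher, which is 40.0% against 16.9% of all genes. That count was made with libraries picked on the members and is no independent support.

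*Psmd8* (chr7:29174188-29180701, minus strand), a subunit of the 19S lid, had the largest rise with DOX. It was at 57.7, 136 and 112 CPM in control replicates 1, 3 and 5, at 243, 271, 241 and 263 in DOX replicates 1 to 4, and at 251, 223 and 223 in DOX+IL-17A replicates 2, 3 and 5. Every library with DOX lay above every control, and the IL-17A libraries (172, 133 and 106) lay among or just above the controls. The log2 fold change was 1.39 (SE 0.25, adjusted p = 0.0014, limma) with DOX and 1.26 (SE 0.27, adjusted p = 0.0053, limma) with DOX+IL-17A. The call with DOX held in all 23 alternatives tried, with adjusted p from 2.7e-05 to 0.0083 (limma, edgeR or DESeq2), and without control replicate 1 the change was 1.03. The call with DOX+IL-17A was lost in 1 of 23, the fit of these conditions alone (adjusted p = 0.055, limma).

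*Psmb3* (chr11:97703399-97713500, plus strand), a non-catalytic subunit of the β ring, was the most even among controls. It was at 63.9, 61.3 and 64.0 CPM in control, 121, 146, 105 and 117 in DOX, and 236, 142 and 157 in DOX+IL-17A. Again no library with DOX fell among the controls, and IL-17A alone gave 90.2, 66.2 and 76.5. The log2 fold change was 0.93 (SE 0.21, adjusted p = 0.0053, limma) with DOX and 1.45 (SE 0.22, adjusted p = 0.00067, limma) with DOX+IL-17A, and both calls held in all 23 alternatives. The difference between DOX+IL-17A and DOX was 0.51 (SE 0.21), with an unadjusted p of 0.025 and an adjusted p of 0.65 (limma), and the groups overlapped. The last 300 bases of the *Psmb3* transcript are at least 95% identical over at least 75 bases to 4 processed pseudogenes, so that 3′ tags could be shared with them.

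*Psmb4* (chr3:94884093-94886961, minus strand), another non-catalytic β subunit, was at 83.4, 247 and 250 CPM in control and at 295, 324, 341 and 379 in DOX. In DOX+IL-17A it was at 333, 290 and 422, and in IL-17A at 354, 285 and 201. The libraries with DOX did not overlap with the controls, 1 of which lay far below the others, and IL-17A overlapped with both. The change with DOX was 0.94 (SE 0.32, adjusted p = 0.046, limma), and the call was lost in 13 of 23 alternatives, with adjusted p from 0.021 to 0.17 (limma, edgeR or DESeq2). Without control replicate 1 the log2 fold change was 0.42. With DOX+IL-17A the change was 0.99 and did not pass (adjusted p = 0.057, limma), and without control replicate 1 it was 0.47.

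*Psmd3* (chr11:98682554-98695979, plus strand), a subunit of the 19S lid, was at 109, 201 and 186 CPM in control and at 278, 314, 258 and 230 in DOX. In DOX+IL-17A it was at 289, 242 and 221, and in IL-17A at 201, 185 and 235. All libraries with DOX lay above the controls by a margin that was small for the nearest of them. The change with DOX was 0.74 (SE 0.22, adjusted p = 0.024, limma). The call was lost in 4 of 23 alternatives, and without control replicate 1 the change was 0.47 (adjusted p = 0.076, limma). With DOX+IL-17A it was 0.63 (adjusted p = 0.071, limma), and 0.36 without that library.

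For each of these 4 genes the exact permutation test over libraries (2-sided) gave p = 0.057 for DOX against control and p = 0.1 for DOX+IL-17A against control. These are the smallest values that 4 against 3 and 3 against 3 libraries allow, so that this test cannot reach 0.05 here.

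**Figure D2:**
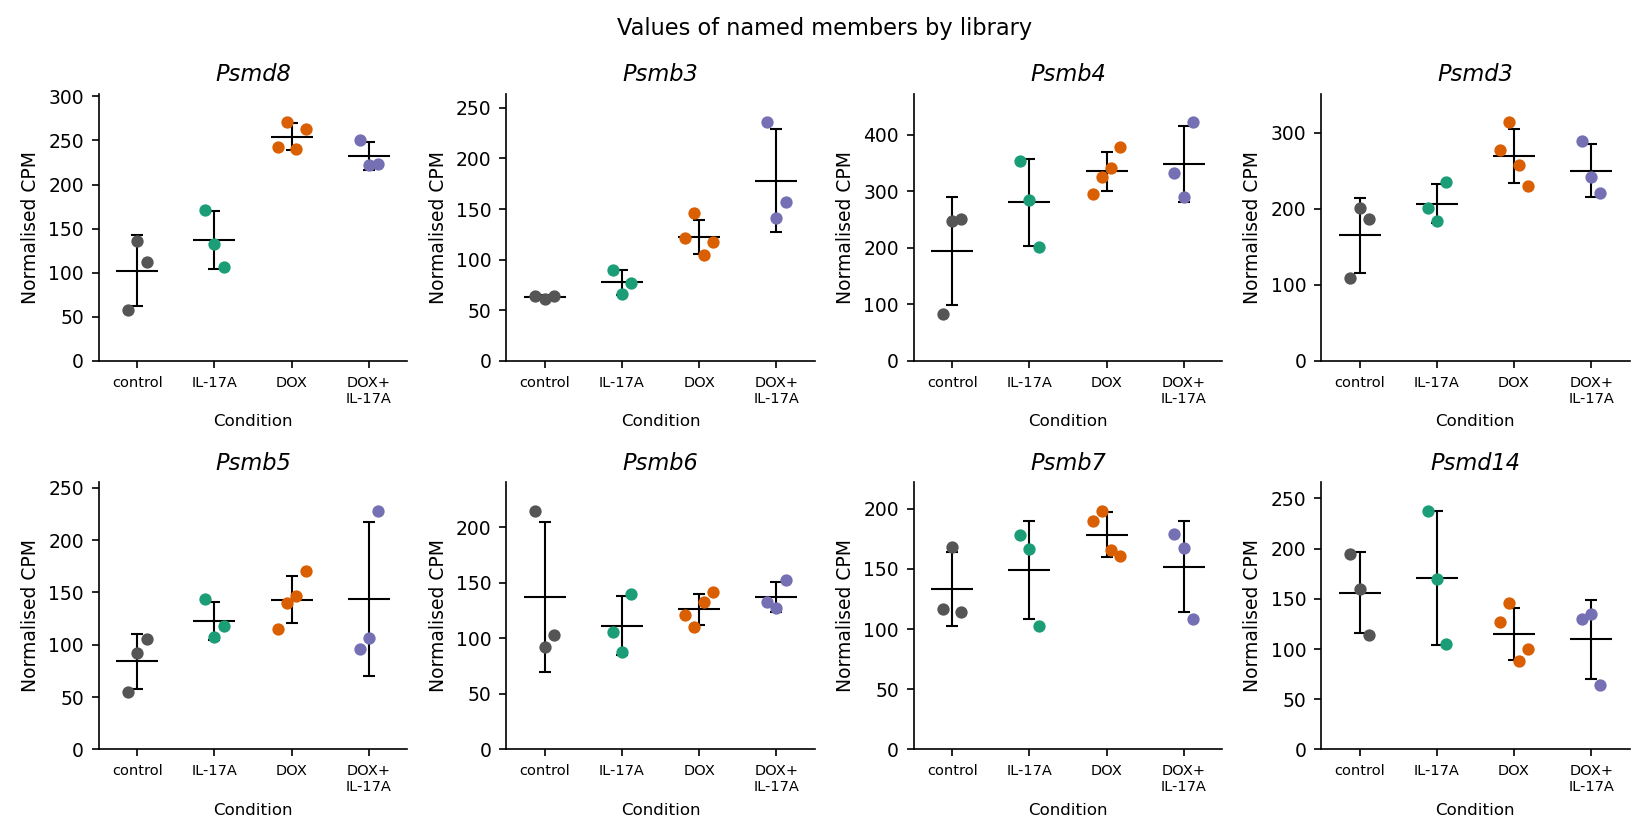
Values of 8 named genes in each of the 13 libraries (points, normalised CPM on the vertical axis) by condition, with the mean and SD of the condition (bars). *Psmd8* and *Psmb3* lie higher in every library with DOX (at least 223 and 105 CPM) than in every control (at most 136 and 64.0 CPM), whereas *Psmb6* and *Psmd14* overlap between conditions.

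The catalytic subunits gave a mixed picture, in which none of the 3 genes passed. *Psmb5*, the chymotrypsin-like subunit and the target of proteasome inhibitor drugs, was at 55, 92.1 and 105 CPM in control, 115, 140, 146 and 171 in DOX, and 96.3, 107 and 228 in DOX+IL-17A. It was higher in all DOX libraries than in all controls, and in DOX+IL-17A the groups overlapped and 1 library stood above the rest. The IL-17A libraries also lay above all controls and overlapped with DOX (0.58 against control, adjusted p = 0.96, limma). The change with DOX was 0.80 (SE 0.29, adjusted p = 0.059, limma). It passed in 4 of 23 alternatives, among them the fit without the 3 libraries picked on these genes. Without control replicate 1 it was 0.52 (adjusted p = 0.19, limma), and with DOX+IL-17A it went from 0.70 to 0.43 without that library. Its last bases are also near-identical to 2 processed pseudogenes.

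*Psmb6*, the caspase-like subunit, was at 215, 92.5 and 103 CPM in control, 121, 110, 133 and 141 in DOX, and 133, 127 and 153 in DOX+IL-17A. Control replicate 1 was the highest of all libraries and the other controls were the lowest outside IL-17A. The change with DOX was -0.02 (95% interval -0.57 to 0.53, adjusted p = 0.97, limma), and its sign turned without control replicate 1 (0.36) and with library size only (0.16).

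*Psmb7*, the trypsin-like subunit, was at 117, 168 and 114 CPM in control, 190, 198, 166 and 160 in DOX, and 179, 168 and 108 in DOX+IL-17A. The groups overlapped. The change with DOX was 0.44 (95% interval -0.07 to 0.94, adjusted p = 0.20, limma). *Nek6* lies on the opposite strand over its last exon, and the strand setting of the counting is not given in the sources used here.

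Each catalytic subunit has an immunoproteasome counterpart, and those 3 genes, which the rule leaves out, are set beside them. *Psmb8* replaces *Psmb5* in the immunoproteasome and was at 34.0, 66.2 and 63.3 CPM in control, 127, 145, 185 and 152 in DOX, and 57.3, 57.6 and 55.5 in DOX+IL-17A. It rose with DOX by 1.51 (SE 0.23, adjusted p = 0.00052, limma), and in DOX+IL-17A it was lower than in DOX by a log2 change of -1.39 (SE 0.23, adjusted p = 0.012, limma), a call that was lost in 5 of 23 alternatives, each with 1 library left out (adjusted p at most 0.085). *Psmb9*, the counterpart of *Psmb6*, rose by 1.74 (SE 0.60, adjusted p = 0.048, limma), from 12.8 ± 10.2 CPM in control (SD, n = 3) to 31.7 ± 7.23 in DOX (SD, n = 4), a call that was lost in 17 of 23 alternatives, 10 of them with 1 library left out, and without control replicate 1 the change was 0.72 (adjusted p = 0.19, limma). *Psmb10*, the counterpart of *Psmb7*, rose by 1.04 (SE 0.25, adjusted p = 0.0079, limma), from 75.8 ± 13.9 (SD, n = 3) to 156 ± 18.2 (SD, n = 4). For DOX+IL-17A against DOX, *Psmb9* differed by -1.39 and *Psmb10* by -0.95, which did not pass (adjusted p = 0.71 and 0.18, limma), and *Psmb5*, *Psmb6* and *Psmb7* differed by -0.09, 0.12 and -0.26 (adjusted p = 0.998 for each, limma). Whether a constitutive gene and its counterpart differed in their response was not tested.

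**Figure D3:**
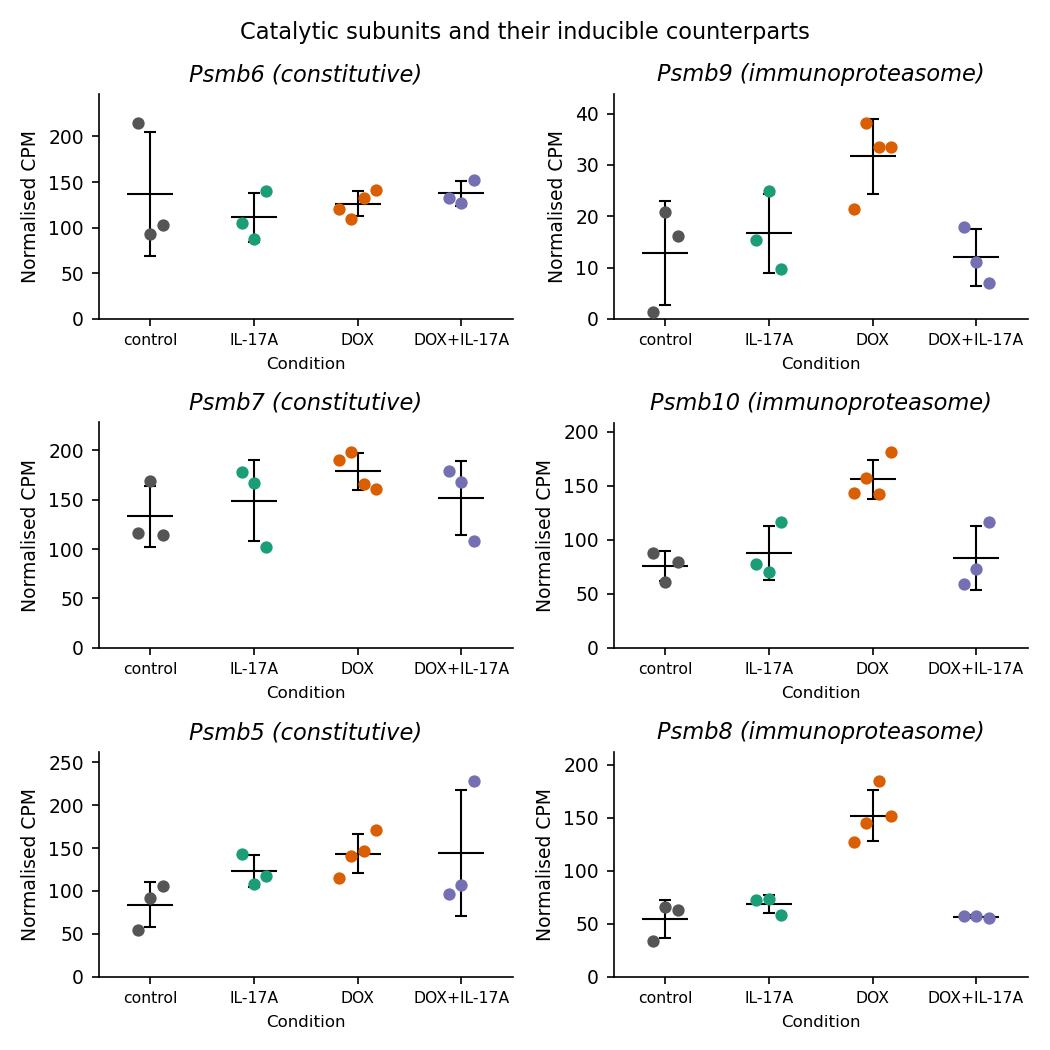
Values of the 3 constitutive catalytic genes (left) and of the immunoproteasome counterpart of each (right) in each library, in normalised CPM on the vertical axis and by condition on the horizontal axis, with mean and SD (bars). *Psmb8* is at 127 to 185 CPM in DOX and at 55.5 to 57.6 in DOX+IL-17A, and *Psmb5* is at 115 to 171 and at 96.3 to 228.

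By subunit group, the 7 α ring genes had log2 fold changes with DOX from 0.07 to 1.14 (median 0.28), all above 0, with none called. The 8 β genes ranged from -0.23 to 0.94 (median 0.62), with 2 called. The 6 ATPase genes ranged from -0.72 to 0.65 (median -0.05), with none called, and the 14 non-ATPase genes from -0.43 to 1.39 (median 0.14), with 2 called. Without control replicate 1 the medians were 0.18, 0.39, 0.54 and 0.45 in that order, so that the ATPase group went from the lowest median to the highest and 2 of its genes, *Psmc4* and *Psmc5*, were called (adjusted p = 0.0014 and 0.047, limma). The order of the groups therefore rested on 1 library.

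The lowest value was that of *Psmc6*, an ATPase gene that is reported here because it was the member nearest to a fall and was chosen after its values were seen. It was at 104, 56.4 and 73.3 CPM in control and at 48.6, 38.9, 43.9 and 50.7 in DOX. All DOX libraries lay below all controls. The change was -0.72 (SE 0.25, adjusted p = 0.053, limma), and it was called lower by edgeR's quasi-likelihood test (adjusted p = 0.044) and by DESeq2 (adjusted p = 0.019). It passed in 5 of 23 alternatives, and without control replicate 1 the change was -0.50 (adjusted p = 0.17, limma). Against control, DOX+IL-17A and IL-17A alone each gave -0.43 and did not pass (adjusted p = 0.29 and 0.96, limma). The values of both conditions overlapped with those of control and of DOX.

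*Psmd14*, the deubiquitinase that removes ubiquitin chains at the entrance of the particle, was at 194, 160 and 114 CPM in control, 126, 146, 88.4 and 99.5 in DOX, and 130, 135 and 63.8 in DOX+IL-17A. The groups overlapped, and IL-17A alone gave 238, 169 and 105. The change with DOX was -0.43 (95% interval -1.09 to 0.23, adjusted p = 0.34, limma). It was -0.26 without control replicate 1, and with the replicate number as a block, although the replicate numbers did not pair these conditions, it was -0.73 and called lower (adjusted p = 0.039, limma). *Psmb11*, whose last bases match 9 other annotated genes, was at 0.00 to 3.18 CPM with no difference between conditions that passed. *Psmc3ip*, which is no subunit, was at 6.77, 5.11 and 6.13 CPM in control and 10.1, 10.7, 14.4 and 13.6 in DOX, a rise of 0.91 (SE 0.28, adjusted p = 0.030, limma) that was lost in 5 of 23 alternatives.

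The same genes were compared between DOX+IL-17A and control, a comparison that shares its controls with the one above. There were 2 members that rose, *Psmb3* and *Psmd8*, and none fell. Thus 5.71% were called higher, where 9.37% of all genes were, and none lower, where 8.34% were. Both genes also passed the fold of 2, which 6.95% of all genes did in that direction. The median of the members was 0.17 against 0.04 for all genes, and 28 of 35 were above 0 (80.0%, against 52.4% of all genes). Group medians were 0.17 for the α ring, 0.44 for the β ring, 0.22 for the ATPases and 0.16 for the non-ATPase genes. Without control replicate 1 there were 9 genes called higher, 25.7% against 10.9% of all genes. Without control replicate 3 there were 4, a count with no share of all genes beside it and so no result about the members. With library size only there were 7, 20% against 13.5%. With the 3 libraries left out that were picked on these genes there were 10, 28.6% against 14.4%.

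The 9 genes called without control replicate 1 included the ubiquitin receptor gene *Psmd4* and the scaffold gene *Psmd2*, together with *Psma6*, *Psmc2*, *Psmc4*, *Psmd7*, *Psmd13*, *Psmb3* and *Psmd8*. *Psmd2* was at 633, 377 and 381 CPM in control, 593, 555, 553 and 501 in DOX, and 705, 675 and 712 in DOX+IL-17A (adjusted p = 0.054 with all libraries, limma), so that 1 control lay above all DOX libraries and the other controls below them. A near copy, Gm5422, matches its last bases. It is named here after its values were seen.

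When IL-17A was added to DOX, none of the 35 was called (DOX+IL-17A against DOX), where 0.455% of all genes were, in either direction, and edgeR, DESeq2 and voom called none as well. Only *Psmb3* had an unadjusted p under 0.05 by limma (2.86% of the members, against 6.35% of all genes). The median was -0.04 (-0.03 over all genes), the values ranged from -0.35 to 0.86, and all 35 lay within 2-fold. The highest was *Psmc2* at 0.86 (95% interval -0.14 to 1.86), and such an interval does not show that the conditions were alike.

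IL-17A alone against control gave no called member by limma, edgeR, DESeq2 or voom, and none with an unadjusted p under 0.05. Over all genes 0.00812% were called, and 3.08% had an unadjusted p under 0.05 by limma. The median was 0.01 (0.02 over all genes) and the values ranged from -0.61 to 1.06. All 6 ATPase genes were below 0 (median -0.38), which turned without control replicate 1, when 5 of 6 were above 0 (median 0.14). Where the IL-17A effect was compared between cells with DOX and cells lacking it (an interaction term), none of the members was called by the same tools, and 0.0% of all genes. One member, *Psmc2*, had an unadjusted p under 0.05 there.

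For DOX+IL-17A against IL-17A, which shares no library with DOX against control, 1 member was called higher, *Psmb3*, at 1.16 (SE 0.22, adjusted p = 0.0039, limma). This was 2.86% of the members, where 6.51% of all genes rose and 6.75% fell. The labels do not pair these conditions by replicate number, and a pairing was only inferred from correlations in the data. With the replicate number as a block there were 5 called higher, 14.3% against 7.56% of all genes. The 5 were *Psmb3*, *Psma6*, *Psmc4*, *Psmd2* and *Psmd8*, and the last 4 had adjusted p from 0.045 to 0.047 in that fit (limma). Although they are no part of this comparison, the controls set the shared spread, and without control replicate 1 there were 7 called, 20% against 11.1%. The median of the members was 0.25 (0.02 over all genes), and the α ring had the lowest group median, 0.00, and the ATPases the highest, 0.59.

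Summed over genes, the 35 members took 0.845% to 0.872% of listed reads in DOX and 0.836% to 0.884% in DOX+IL-17A. In control they took 0.833%, 0.623% and 0.604%, and in IL-17A 0.718%, 0.610% and 0.666%. By this share the libraries with DOX all lay above the others, with control replicate 1 just below them. On the TMM-normalised scale the order was another, since the members summed to 9276 CPM in control replicate 1, the highest of the 13 libraries, against 7896 to 8175 in DOX, 7534 to 8912 in DOX+IL-17A and 6280 and 6420 in the other controls. In CPM, the α ring summed to 2270 to 2518 in DOX and 1996 to 2027 in control, which did not overlap. The β ring summed to 1193 to 1289 and 928 to 1032, which did not overlap either. IL-17A replicates 2, 3 and 5 were at 2642, 2005 and 2074 for the α ring. For the β ring they were at 1261, 1023 and 1096. Replicate 2 of IL-17A thus lay above all DOX libraries in the α ring and among them in the β ring. DOX+IL-17A gave 2125 to 2581 for the α ring and 1136 to 1479 for the β ring. The ATPase group summed to 989 to 1152 in DOX and to 2562, 760 and 822 in control, and the non-ATPase group to 3156 to 3516 in DOX and to 3773, 2667 and 2400 in control. In both 19S groups control replicate 1 lay above all DOX libraries and the other controls below them. A sum gives most weight to the genes with the most tags.

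**Figure D4:**
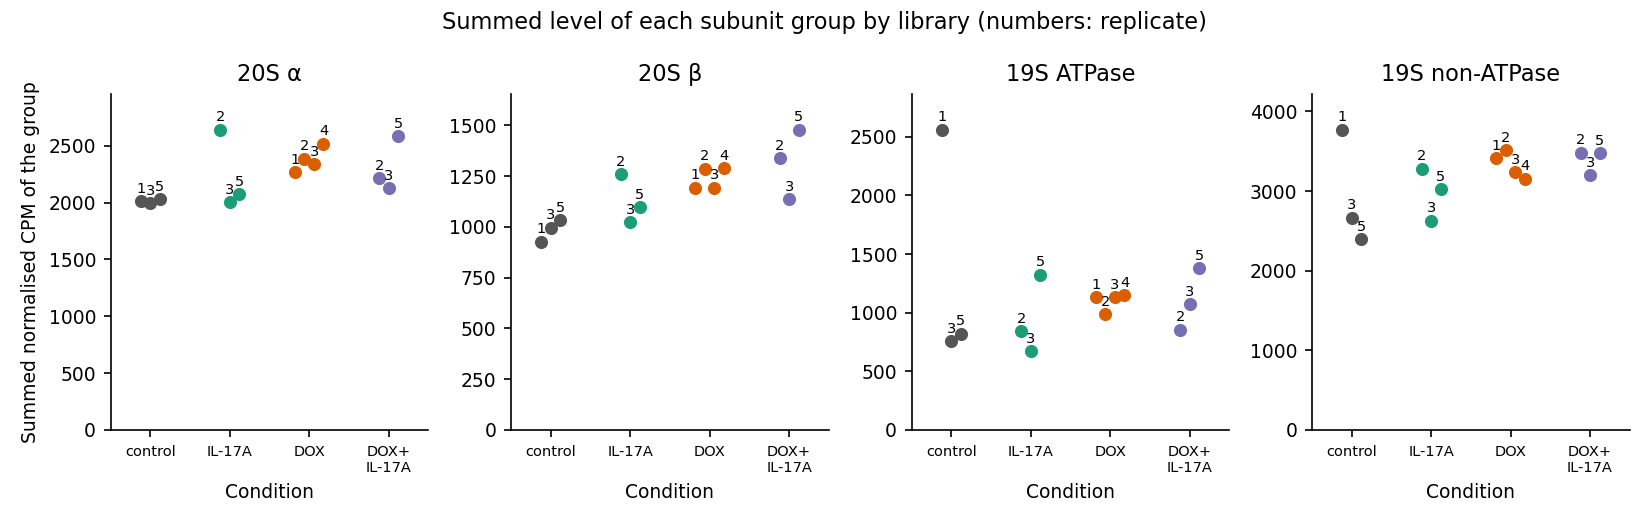
Summed normalised CPM of each subunit group (vertical axis) in each library by condition, with the replicate number above each point. The ATPase group of control replicate 1 is at 2562 CPM and at 674 to 1378 in the other 12 libraries.

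The spread between replicates of the subunit genes was not even over conditions. The median SD of a member within a condition was 0.15 in DOX (0.27 over all genes), 0.28 in DOX+IL-17A (0.37), 0.38 in IL-17A (0.35) and 0.49 in control (0.45), on the log2 scale. In control replicate 1, 10 members were the highest and 10 the lowest of the 13 libraries. The SD of control without that library was not computed. IL-17A replicate 3 was the lowest of the 13 for 13 members, and IL-17A replicate 2 the highest for 8.

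In control replicate 1 the subunit genes did not move as a block. All 6 ATPase genes were higher there than the mean of the other controls, by 0.68 to 2.14 on the log2 scale. *Psmc1*, for example, was at 1437 CPM against 362 and 357. Among the non-ATPase genes, *Psmd4* was at 1157 against 297 and 360 and *Psmd13* at 333 against 98.7 and 94.9. In contrast, the α ring gene *Psma5*, which has 2 near-identical pseudogenes, was at 6.09 against 90.5 and 46.3, and *Psma2* at 67.7 against 310 and 322. *Psmb4* and *Psmd8*, called above, were also low there. These examples were chosen after their values were seen.

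The same direction was seen in IL-17A replicate 5. All 6 ATPase genes were above the mean of the other IL-17A libraries, by 0.24 to 1.04. *Psma5* was at 23.2 against 120 and 94.9, and *Psmb2* at 8.29 against 33.6 and 31.1. Across the 35 members, the deviations of control replicate 1 and IL-17A replicate 5 from the rest of their own conditions had a Pearson r of 0.84 and a Spearman rho of 0.83, where r was 0.47 over all 12319 genes. These libraries were picked as the farthest of their conditions on these genes, genes are not independent replicates, and the values are a description. DOX replicate 2, the farthest of its condition, deviated less (-0.65 to 0.90) and the other way from control replicate 1 (r = -0.60, -0.09 over all genes). The deviations in control replicate 1 followed transcript features weakly, with Spearman rho of -0.33 for the length of the 3′ UTR, 0.30 for coding length, 0.00 for transcript length, 0.17 for the GC content of the transcript and 0.26 for that of its last 500 bases. Over all genes with a value (11389) these were 0.02, 0.07, 0.06, 0.07 and 0.10.

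**Figure D5:**
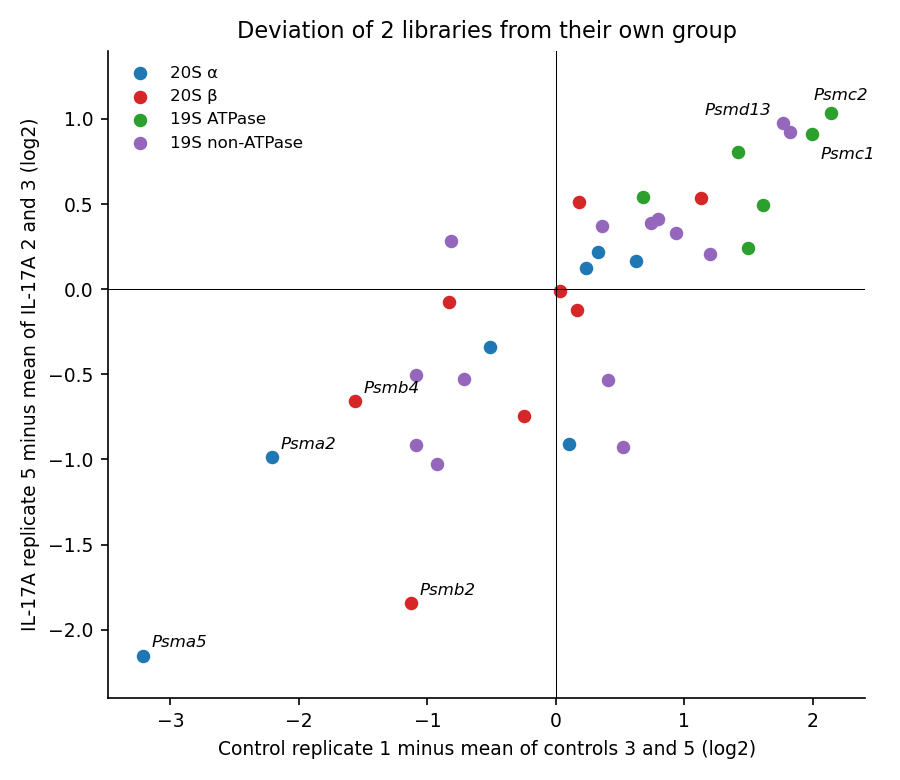
Each point is 1 of the 35 genes, with its log2 deviation in control replicate 1 from the mean of controls 3 and 5 on the horizontal axis and in IL-17A replicate 5 from the mean of IL-17A 2 and 3 on the vertical axis, coloured by subunit group. All 6 ATPase genes lie in the upper right and *Psma5* and *Psmb2* in the lower left (Pearson r = 0.84 over the 35 genes).

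Other genes of the pathway were counted in fixed lists. Over all genes tested, 12.4% were called higher and 9.71% lower with DOX, and 9.37% and 8.34% with DOX+IL-17A. Whether any list differed from these shares was not tested. The activator and inhibitor genes had 2 of 5 tested higher and 1 lower with DOX (median 0.33). *Psme3*, the nuclear activator of the core, rose by 0.95 (adjusted p = 0.0058, limma), *Psme2*, a subunit of the interferon-inducible activator, by 1.27 (adjusted p = 0.044, limma), and *Psme4*, another nuclear activator, fell by 0.59 (adjusted p = 0.019, limma). With DOX+IL-17A, *Psme3* rose by 1.28 and *Psme4* changed by -0.65 (adjusted p = 0.0018 and 0.020, limma).

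Of 8 assembly chaperone genes tested, 3 of which are also members, 1 was called in both comparisons. *Psmg3*, which helps to form the α ring, rose by 1.56 (DOX) and 1.48 (DOX+IL-17A) (adjusted p = 0.0082 and 0.019, limma). Without control replicate 1, where it was at 12.0 CPM against 48.2 and 49.7, the changes were 0.91 and 0.84. Of 13 other 19S genes and associated proteins tested, 1 rose and 1 fell in each. *Zfand2a*, an arsenite- and heat-inducible partner of the 19S particle, rose by 2.07 and 1.70 (adjusted p = 0.0018 and 0.011, limma), and *Ecpas*, a proteasome adaptor, changed by -0.83 and -0.99 (adjusted p = 0.021 and 0.015, limma).

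Of 11 regulator genes tested, 3 rose with DOX, 2 rose with DOX+IL-17A, none fell (median -0.20 and -0.17). *Mafk* and *Mafg*, small partners of NFE2L1 and NFE2L2, rose by 0.91 and 0.71 with DOX (adjusted p = 0.042 and 0.046, limma), and *Nfya*, a subunit of NF-Y, by 1.07 (adjusted p = 0.041, limma). *Mafk* and *Nfya* also rose with DOX+IL-17A, by 1.13 and 1.37 (adjusted p = 0.026 and 0.022, limma). *Nfe2l1* itself differed by 0.11 and 0.03 (adjusted p = 0.82 and 0.97, limma). None of 5 genes for ubiquitin and its activating enzymes was called in either comparison (median 0.01 and 0.00).

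Of 10 shuttle and segregase genes tested, 2 rose and 1 fell with DOX. *Nploc4* and *Ufd1*, cofactors of the p97 segregase, rose by 0.63 and 0.89 (adjusted p = 0.038 and 0.0081, limma), and *Faf1*, another p97 cofactor, fell by 1.32 (adjusted p = 0.0061, limma). Of 6 other proteases, *Lonp1* of the mitochondrion rose by 0.91 and the aminopeptidase gene *Npepps* fell by 0.87 (adjusted p = 0.0044 and 0.037, limma). With DOX+IL-17A, *Nploc4* and *Lonp1* rose and *Faf1* and *Npepps* fell as well. For DOX+IL-17A against DOX none of the genes in these lists was called except *Psmb8*, where 0.455% of all genes were called. Without control replicate 1 the calls of *Psme2* (0.56), *Mafg* (0.38) and *Nfya* (0.72) with DOX and those of *Nfya* and *Lonp1* with DOX+IL-17A were lost. The calls of *Psme3* and *Faf1* in both comparisons, and of *Psmb8*, *Psmb10*, *Psmg3*, *Zfand2a*, *Ufd1* and *Lonp1* with DOX, held in all 23 alternatives. Other calls with DOX were lost in 16 (*Mafg*), 12 (*Mafk* and *Psme2*), 11 (*Nfya*), 9 (*Nploc4* and *Npepps*), 5 (*Ecpas*) and 3 (*Psme4*) of 23. Calls with DOX+IL-17A were lost in 11 (*Npepps*), 6 (*Nfya* and *Lonp1*), 5 (*Psme4*), 4 (*Mafk* and *Ecpas*), 3 (*Psmg3* and *Nploc4*) and 1 (*Zfand2a*).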

How the data were processed

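RNA of 13 cultures of 4T1-Thy1.1 cells was sequenced with a 3′ tag kit (QuantSeq, forward) as single reads of 75 bases. The submitters' processing notes name FastQC, Trimmomatic, STAR, featureCounts and the mm10 build, and the study's methods add TMM normalisation and voom with limma. The deposited table holds 1 normalised signal per gene and library, and the authors gave no unit. Each value was a whole multiple of the worth of 1 read (100% of values within 0.05 of a whole read), and TMM factors recomputed from these reads matched the deposited scale (ratio 1), so the deposited signal is a TMM-normalised CPM and whole reads could be recovered for edgeR (4.0.16) and DESeq2 (1.42.0) as alternatives. A second entry for *Ifit1* was dropped.

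The main test was limma (3.58.1, R 4.3.3) with its trend option, run on log2(value + 1) with a term for condition alone over the 13 libraries (9 residual degrees of freedom), over 12319 genes kept by edgeR's filterByExpr, with Benjamini-Hochberg adjustment over all of them. Fold changes are on the log2(value + 1) scale and are understated for low genes. A gene was called at an adjusted p under 0.05, and the study's call with a fold above 2 is given beside it. The steps were run on simulated data with an even spread, in which no library stood apart. That run checked the code only, and not how the test behaves with the spread of these libraries. The labels do not say whether libraries came from separate cultures, so that p-values measure the spread between these libraries. In cultured bulk samples, fewer cells of a kind and less RNA per cell cannot be told apart.

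The members, lists and tests were chosen with earlier results of these data known. Named genes were *Psmb5*, *Psmb6*, *Psmb7*, *Psmd14* and *Psmb11*, and up to 3 rises and 3 falls among called members in DOX or DOX+IL-17A against control and DOX+IL-17A against DOX, with *Psmb4* thereby named. *Psmd3*, the remaining member called with DOX, lay outside this rule and was named in addition. For outside lists up to 4 called genes were named. Genes named for other reasons are said to be. Gene positions are from GENCODE M21 (GRCm38, the mm10 assembly). Promoters are from RefSeq.

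Pairing was checked by the correlation over all genes of residuals of libraries with the same number. Each of the 3 same-numbered pairs of DOX+IL-17A and IL-17A was above 0.1 (0.17, 0.20 and 0.35), so that the numbers were taken to pair these conditions from the data and not from the labels. The mean over all other-numbered pairs was -0.04. Some of those also passed 0.1, such as DOX+IL-17A replicate 2 with IL-17A replicate 3 (0.12) and control replicate 1 with IL-17A replicate 5 (0.47). The pairing is therefore not established. For the other comparisons at least 1 pair was below that or fewer than 3 pairs existed. Alternatives were voom, edgeR, DESeq2, no TMM factor (library size only), no filter, a filter at a mean of 10 reads, 0.1 as the pseudocount, a fit of the compared conditions alone, a block for the replicate number, and leaving out each library in turn. The stricter call was applied to counts of members only and is not 1 of the 23 alternatives given for single genes. Leaving out 3 libraries together was added after seeing the data and is 1 of the 23. These fits share most of their libraries, so that counts out of 23 are not independent checks. Leaving out a library of a condition that is not compared alters only the shared spread and not the fold change.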

Additional observations from a re-analysis of the deposited data

Results flagged for a closer look

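Among 69 quantities examined in the 4 DOX libraries (the 35 genes, *Psmc3ip*, the named genes of other lists and summed levels), 5 had a highest or lowest library whose gap to the next was too large a part of the range by Dixon's criterion for 4 values. Chance alone gives about 1 in 20 groups. None was a single member. The summed level of the 19S ATPase genes was 989 CPM in DOX replicate 2 against 1131 to 1152 in the others. *Lonp1* was at 185 CPM in DOX replicate 3 against 167 to 170. Skeletal muscle markers summed to 287 CPM in DOX replicate 1 against 4.92 to 31.9, and red blood cell markers to 66.5 against 1.34 to 5.47. Liver markers summed to 0.27 CPM in DOX replicate 4 and to 0 in the others.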

How the results depend on the processing

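The count of members called moved by over 1.5 times in some settings, and the cause was not tested. With library size only, the counts of members called higher were 8 for DOX against control, 7 for DOX+IL-17A against control and 6 for DOX+IL-17A against IL-17A (4, 2 and 1 in the main analysis). For the first 2 of these, 17.1% and 13.5% of all genes were called higher, against 12.4% and 9.37% in the main analysis. Leaving out 1 library at a time gave 2 to 6, 2 to 9 and 1 to 7 for the same 3 comparisons, with the highest values without control replicate 1, and 0 to 1 lower for DOX against control. Without control replicate 1, 11.7%, 10.9% and 11.1% of all genes were called higher. Leaving out the 3 libraries named in the report gave 14, 10 and 10 higher, and 2 lower for DOX+IL-17A against IL-17A. For DOX and DOX+IL-17A against control, 16.9% and 14.4% of all genes were then called higher. DESeq2 called 5 higher for DOX+IL-17A against IL-17A. With only the conditions compared in the fit, 1 was called for DOX+IL-17A against control, where *Psmd8* was lost (adjusted p = 0.055, limma), and 3 for DOX+IL-17A against IL-17A. The stricter call left 1 for DOX against control. DESeq2 and edgeR each called 1 lower for DOX against control, *Psmc6*. Counts given here without a share of all genes describe how the calls moved and are not a result about the members.

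With the replicate number as a block, 3 members were called higher for DOX against control (and 1 lower, *Psmd14*), 3 for DOX+IL-17A against control and 5 for DOX+IL-17A against IL-17A, and 0 for the other comparisons. Over all genes the block gave 8.22%, 6.30% and 7.56% higher in these 3 comparisons, and 6.23% lower for DOX against control. In the labels, samples of different conditions share only a number. Over 13 same-numbered pairs the residuals correlated with a mean r of 0.15, against -0.04 for other pairs.

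Of the named genes, those far from any call changed sign in some settings. The ranges that follow are those with 1 library left out. For DOX+IL-17A against DOX, *Psmb4* was -0.20 with the block, -0.10 with the 3 libraries left out and ranged from -0.10 to 0.17; *Psmb5* was 0.0089 with edgeR, 0.029 with DESeq2 and ranged from -0.48 to 0.14; and *Psmd14* was 0.14 with the block, 0.23 with the 3 left out and ranged from -0.31 to 0.23. *Psmb6* was 0.015 with voom, 0.16 with library size only and 0.36 with the 3 left out for DOX against control, ranging from -0.25 to 0.36, and -0.020 with DESeq2 for DOX+IL-17A against control, ranging from -0.12 to 0.48. *Psmb11*, near the detection limit, was 0.13 with the block and 0.0092 with library size only for DOX against control (-0.27 to 0.062), 0.034 with the block for DOX+IL-17A against control (-0.75 to 0.28), and 0.060 with edgeR and 0.084 with DESeq2 for DOX+IL-17A against DOX (-0.65 to 0.38). Depth limited mainly *Psmb11*, with 0 to 51 reads per library.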
